A study of Mus musculus with 18 samples.

Results

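The hedgehog pathway genes described here are 8 of the 18193 genes that the array table names: the ligands Ihh and Dhh, the receptor Ptch1, the decoy receptor Hhip, the signal transducer Smo and the transcription factors Gli1, Gli2 and Gli3. They were chosen by symbol as core parts of one pathway, with earlier results of these data known. They are covered by 19 probe sets (groups of short probes that read one transcript) carrying exactly 1 of these symbols, and the brightest probe set over the 18 arrays stood for its gene. All 8 passed the filter on dim genes and were tested among 12713 genes.

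Hedgehog ligands are secreted proteins. Without ligand, Ptch1 holds Smo inactive; when a ligand binds Ptch1, Smo is released and signals through the primary cilium to the Gli factors. Gli2 is mainly an activator and Gli3 mainly a repressor, while Gli1, Ptch1 and Hhip are themselves transcribed in response to the signal and are commonly read as its output. In the growing follicle of the ovary, granulosa cells make Ihh and Dhh, and the surrounding theca and stromal cells express Ptch1, Smo and the Gli factors. The oocyte factors Gdf9 and Bmp15 are known to act on granulosa cells upstream of the ligands.

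RNA came from whole ovaries of 21-day-old females on a mixed C57B6J/S129 background, with 3 biological replicate arrays in each of 6 groups. The groups were Pik3cd+/- or Pik3cd-/- mice that were untreated, had received 10 IU of PMSG (a gonadotropin with mainly FSH-like activity) 44 hours earlier, or were taken 72 hours after the first of 3 oestradiol (E2) injections of 0.03 ml given 24 hours apart. The gene Pik3cd codes for the catalytic protein p110 delta of phosphoinositide 3-kinase, and both genotypes carried at least 1 mutant allele. The treated groups have no vehicle-injected counterpart here, so injection and elapsed time belong to each treatment effect. The concentration of E2, and whether ovaries of several animals were pooled for an array, are not given in the sources used here.

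The median signal was 48.4 to 50.9 intensity units over the 18 arrays, and arrays correlated with the others of their group at 0.969 to 0.993 on average. The Pik3cd probe set that followed the labels most clearly read 61.4 to 73.1 units in the 9 Pik3cd+/- arrays and 19.1 to 28.8 units in the 9 Pik3cd-/- arrays, with no overlap. The brightest of the 6 Pik3cd probe sets did not show this (2329 to 4833 against 2948.5 to 3945 units). An array stood apart from its mates in granulosa cell markers in each of 3 groups: the mean log2 signal of 8 markers was 11.75 in Pik3cd+/- PMSG replicate 3 against 11.07 and 11.08 in its mates, 10.21 in Pik3cd-/- untreated replicate 2 against 10.88 and 11.07, and 10.50 in Pik3cd-/- E2 replicate 1 against 11.10 and 11.12. The ligand and Hhip results that moved most with these arrays are given with and without them. In whole ovaries, fewer cells of a type and less RNA per cell cannot be told apart.

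Promoter windows from RefSeq (build GRCm38.p6; 250 bases before to 50 after a start site) were found for 7 of the 8 genes, all but Gli1. The 250 upstream bases are printed for Gli3, the only member called both for PMSG and between genotypes (comparisons that share the Pik3cd+/- PMSG arrays), and for Smo, the member whose highest and lowest group means had the smallest ratio; capitals mark GC boxes (GGGCGG or its other strand, CCGCCC), which SP-family factors bind.
Gli3, chr13:15463473-15463722, plus strand: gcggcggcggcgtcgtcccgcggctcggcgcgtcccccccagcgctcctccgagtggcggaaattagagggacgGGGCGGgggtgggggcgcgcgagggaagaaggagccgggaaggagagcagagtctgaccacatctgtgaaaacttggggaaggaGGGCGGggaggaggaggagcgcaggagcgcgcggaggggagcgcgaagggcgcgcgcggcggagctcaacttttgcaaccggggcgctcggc
Smo, chr6:29735247-29735496, plus strand: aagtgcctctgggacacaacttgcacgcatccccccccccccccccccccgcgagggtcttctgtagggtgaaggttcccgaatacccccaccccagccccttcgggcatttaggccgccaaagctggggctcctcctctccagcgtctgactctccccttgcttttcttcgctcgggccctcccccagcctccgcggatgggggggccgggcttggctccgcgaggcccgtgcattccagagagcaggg
The Gli3 window held 2 GC boxes and the Smo window 0. Of the other members, Dhh had 4, Ihh and Hhip 2 each, and Ptch1 and Gli2 1 each, while 32.7% of all 32851 windows had at least 1. The upstream GC content was 59.6% to 78.4% in the 7 members, with a median of 52.4% over all windows. The Gli binding motif GACCACCCA, searched on both strands (TGGGTGGTC), matched 0 of the 7 windows of 300 bases and 0.253% of all windows. Allowing 1 mismatch, none of the 7 matched, against 6.74% of all. These letters were searched only in these windows.

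PMSG was followed by lower signal of the pathway's receptor and all 3 Gli factors in Pik3cd+/- ovaries. Ptch1, Gli1, Gli2 and Gli3 fell to between 64.6% and 78.9% of their untreated means, 4 of the 8 genes at an adjusted p under 0.05 (called; limma with Benjamini-Hochberg adjustment over all 12713 genes). Of all genes 17.7% were called in this comparison, 11.9% as lower. The single arrays after PMSG lay below every untreated array for 6 of the 8 genes, against 24.9% of all genes. The median log2 change was -0.36 over the 8 genes and -0.05 over all genes. In Pik3cd-/- ovaries 0 of the 8 genes were called after PMSG and 2, Dhh and Gli2, had an unadjusted limma p under 0.05, where 2.39% of all genes were called and 2414 of the 12713 had an unadjusted p under 0.05. Means are given in intensity units ± SD (n = 3), and changes as log2 differences ± SE of the limma model, computed after adding 8.58 units to each value.

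**Figure D1:**
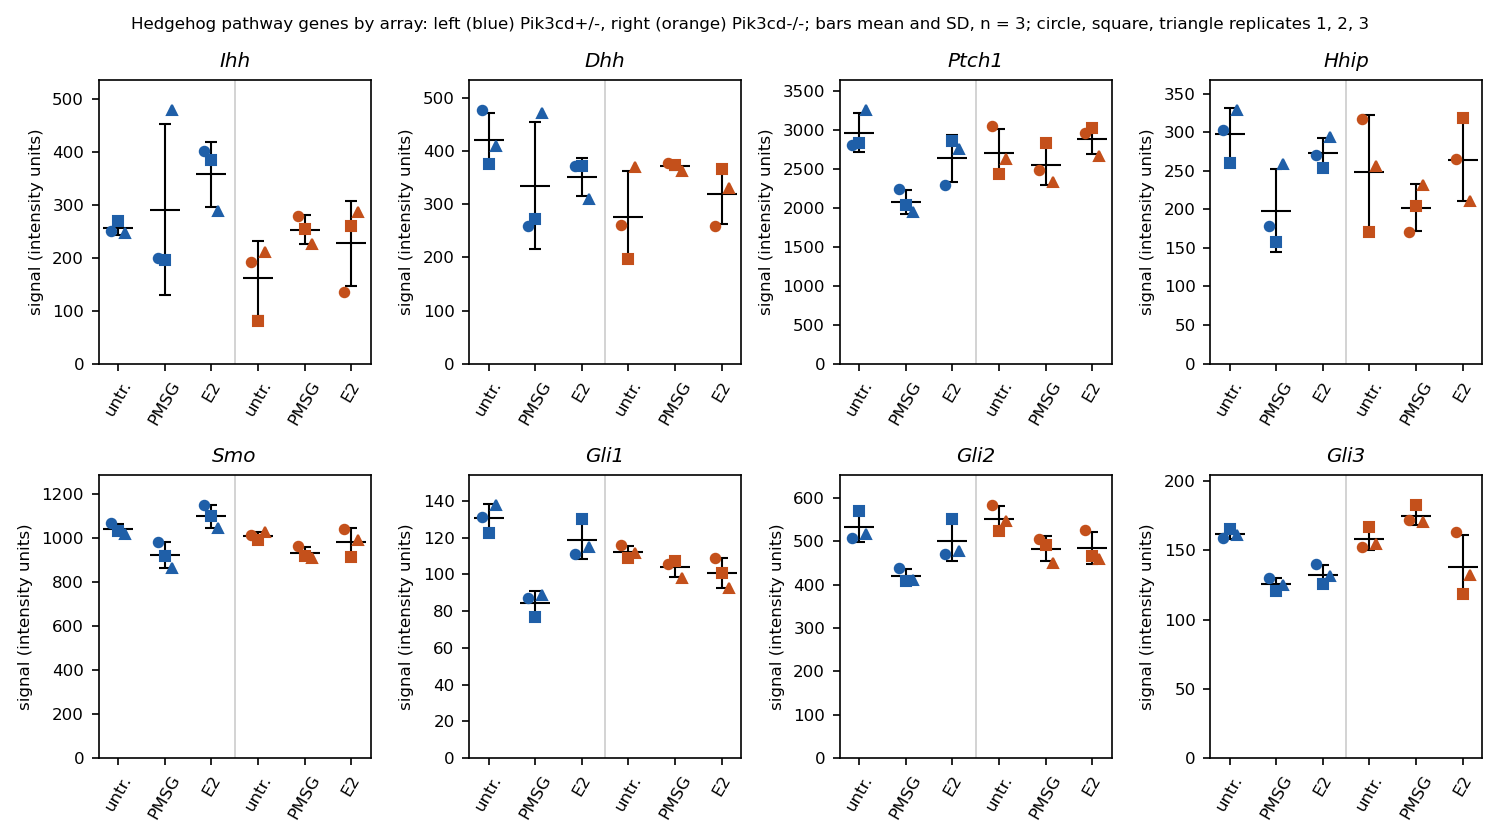
Signal in intensity units (vertical axes, from 0) of each of the 8 hedgehog pathway genes on every array, by genotype and treatment; horizontal bars are means and whiskers SD (n = 3), and marker shapes are replicates. Ptch1, Gli1 and Gli2 were lowest in the Pik3cd+/- PMSG arrays, with no overlap with the group next above, and the Gli3 probe set shown was highest in the Pik3cd-/- PMSG arrays.

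On the log2 scale the model's SE of a difference was 0.35 for Ihh, 0.22 for Dhh and 0.21 for Hhip, and 0.07 to 0.10 for the other 5 genes. Ihh, which granulosa cells secrete, read 252, 271 and 246 units in untreated Pik3cd+/- ovaries and 199.8, 196 and 479 units after PMSG. The PMSG replicates thus lay on both sides of the untreated range, and the change was 0.06 ± 0.35 (adjusted p = 0.932), or -0.36 ± 0.33 without replicate 3 (adjusted p = 0.466). In Pik3cd-/- ovaries Ihh read 192, 80.6 and 211 units untreated and 280.1, 256 and 226 units after PMSG, so that every PMSG array was above every untreated one. That change of 0.73 ± 0.35 did not pass (adjusted p = 0.277), and its 95% interval ran from -0.02 to 1.48; without untreated replicate 2 the Ihh change was 0.31 ± 0.33 (adjusted p = 0.683). After E2 the Ihh mean was 358 ± 61.5 units in Pik3cd+/- and 228 ± 80.6 units in Pik3cd-/- ovaries, and the Pik3cd+/- E2 arrays lay above their untreated ones without passing the test (0.46 ± 0.35, adjusted p = 0.552). The E2 change of Ihh in Pik3cd-/- ovaries was 0.51 ± 0.35 (adjusted p = 0.490), or 0.83 ± 0.36 without E2 replicate 1, which read 136 units against 261 and 286 in its mates (adjusted p = 0.238).

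Dhh, the second ligand made by granulosa cells, read 476, 375 and 409.7 units in untreated Pik3cd+/- ovaries and 259, 272 and 472 units after PMSG. Replicate 3 was again the high array, and the change was -0.37 ± 0.22 (adjusted p = 0.256). Without that array the Dhh change was -0.64 and passed (adjusted p = 0.0373). Among Pik3cd-/- ovaries Dhh read 261, 197 and 369 units untreated and 377, 374 and 363 units after PMSG, a difference of 0.46 ± 0.22 (adjusted p = 0.263) with overlapping arrays. It was 0.25 ± 0.22 without untreated replicate 2 (adjusted p = 0.614). Untreated Pik3cd-/- ovaries had 65.6% of the Dhh signal and 63.0% of the Ihh signal of untreated Pik3cd+/- ovaries. Neither difference passed (Dhh -0.63 ± 0.22, adjusted p = 0.121; Ihh -0.74 ± 0.35, adjusted p = 0.248), although Dhh did without Pik3cd-/- untreated replicate 3 (adjusted p = 0.0349). Without Pik3cd-/- untreated replicate 2, the array with low granulosa markers, the differences were -0.42 for Dhh and -0.33 for Ihh. After E2, Dhh averaged 351 ± 35.5 units in Pik3cd+/- and 318 ± 55.2 units in Pik3cd-/- ovaries. The Dhh change after E2 in Pik3cd-/- ovaries was 0.23 ± 0.22 (adjusted p = 0.612), and 0.37 ± 0.24 without E2 replicate 1 (adjusted p = 0.394).

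Arrays with more granulosa marker signal than their group mates also had more ligand signal. Over the 18 arrays, as deviations from group means, Dhh and the mean of 8 granulosa markers had a Pearson r of 0.925 (permutation within groups, exact p = 7.93e-04, adjusted p = 0.0476 over 60 relations) and a Spearman rho of 0.882 (exact p = 2.79e-04, adjusted p = 0.0167). Without the 2 arrays farthest from the median of the Dhh deviations, r was 0.886. Ihh had r = 0.969 with the same markers, which did not pass the adjustment (exact permutation p = 0.00225, adjusted p = 0.0675), and rho = 0.946 (exact permutation p = 0.00219, adjusted p = 0.0656). Ihh and Dhh were related to each other with r = 0.890 (exact permutation p = 0.00482, adjusted p = 0.0965) and rho = 0.825 (exact permutation p = 0.00409, adjusted p = 0.0819). Gli1 showed no such relation to the markers (r = 0.06, exact permutation p = 0.805, adjusted p = 0.909; rho = 0.04, exact permutation p = 0.901, adjusted p = 0.932), and 0 of the 28 pairs of members passed the adjustment. All values of a point share 1 array and its RNA. The part of granulosa content in the ligand differences was not tested.

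**Figure D2:**
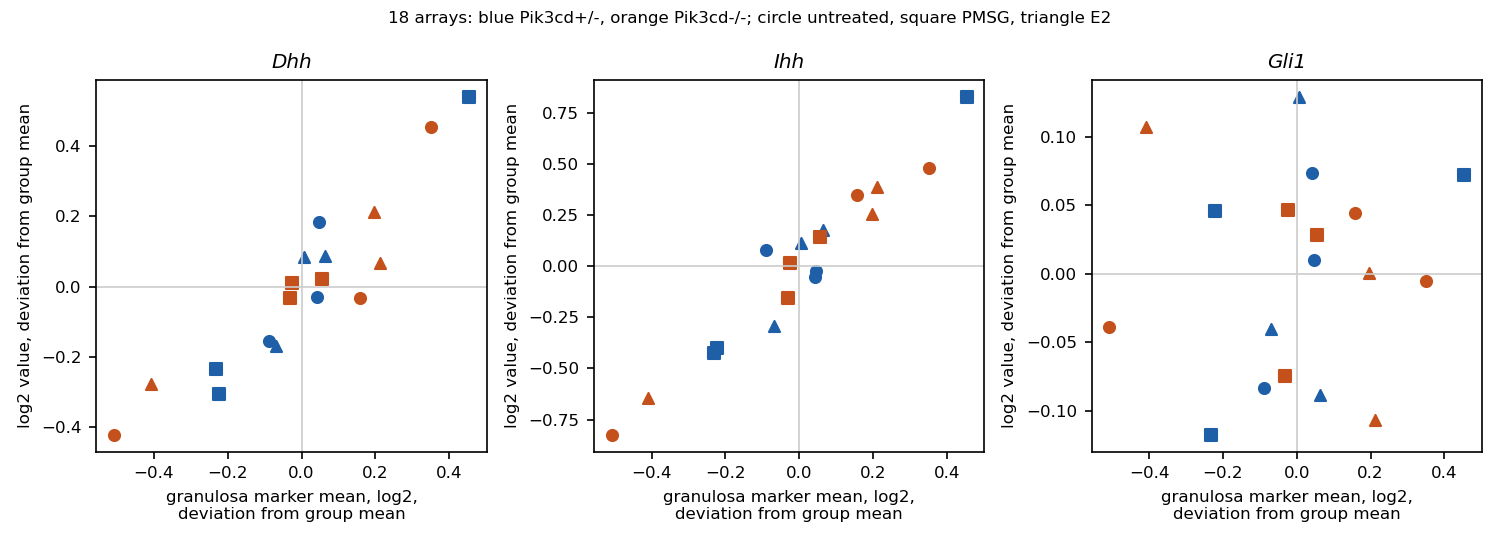
Deviation of Dhh, Ihh and Gli1 from their group means (vertical axes, log2 of signal plus 8.58) against that of the mean of 8 granulosa markers (horizontal axes, log2), with 1 point for each of the 18 arrays. Dhh and Ihh rise along the marker mean (r = 0.925 and 0.969), and Gli1 does not (r = 0.06).

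Ptch1, the receptor that binds the ligands and a transcriptional target of the pathway, read 2806, 2829 and 3245 units in untreated Pik3cd+/- ovaries and 2239, 2033 and 1939 units after PMSG. All PMSG arrays lay below all untreated ones. The mean fell to 69.9% of the untreated mean, a log2 change of -0.51 ± 0.10 (adjusted p = 0.00543). For Pik3cd-/- ovaries the Ptch1 mean was 2699 ± 312 units untreated and 2542 ± 256 units after PMSG, with overlapping arrays and a change of -0.08 ± 0.10 (adjusted p = 0.696; 95% interval -0.31 to 0.14). After E2 the means were 2629 ± 305 units in Pik3cd+/- and 2878 ± 192 units in Pik3cd-/- ovaries, and neither E2 change was called (-0.17 and 0.10).

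Hhip, a membrane protein that binds hedgehog ligands without passing on a signal, averaged 297 ± 34.2 units in untreated Pik3cd+/- ovaries and 198 ± 53.6 units after PMSG. The groups did not overlap (260.6 to 328 against 157 to 259 units), but the change of -0.59 ± 0.21 did not pass (adjusted p = 0.0643). Without Pik3cd+/- PMSG replicate 3, the array with high granulosa markers, Hhip changed by -0.79 and passed (adjusted p = 0.0226). It also passed with the same change of -0.59 when Pik3cd-/- untreated replicate 1 or 2 or Pik3cd-/- E2 replicate 3, which enter only the error of this comparison, was left out (adjusted p of 0.0477, 0.0320 and 0.0498). Hhip in Pik3cd-/- ovaries was 248 ± 73.8 units untreated, 202 ± 30.3 after PMSG and 265 ± 54.2 after E2, with overlapping arrays throughout. In Pik3cd+/- ovaries after E2 it was 273 ± 20.1 units.

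Smo, the transducer that Ptch1 restrains, had the narrowest span of group means in proportion when each gene was read by its brightest probe set. The ratio of highest to lowest was 1.19 (1.31 to 2.22 in the others). The Smo means ran from 924 ± 59.1 units (Pik3cd+/- PMSG) to 1101 ± 53.1 units (Pik3cd+/- E2). After PMSG it lay at 88.8% of the untreated mean in Pik3cd+/- and 92.1% in Pik3cd-/- ovaries, without overlap of arrays in either genotype. Neither difference was called (-0.17 ± 0.07, adjusted p = 0.0825, and -0.12 ± 0.07, adjusted p = 0.345).

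Gli1, the factor whose own transcription follows the signal, had the smallest adjusted p of the 8 genes. It read 132, 123 and 138 units in untreated Pik3cd+/- ovaries and 87.3, 77.0 and 89.0 units after PMSG, so the highest PMSG array was below the lowest untreated one. The mean fell to 64.6%, a log2 change of -0.58 ± 0.09 (adjusted p = 8.31e-04). Gli1 in Pik3cd-/- ovaries read 116, 109 and 112 units untreated and 106, 107 and 98.1 units after PMSG. The arrays did not overlap there either, but the change was small, -0.10 ± 0.09 (adjusted p = 0.543; 95% interval -0.29 to 0.08). Means after E2 were 119 ± 10.3 and 101 ± 8.10 units in Pik3cd+/- and Pik3cd-/- ovaries, and neither E2 change was called (-0.13 and -0.14).

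Gli2, the main activator, read 508, 571 and 517 units in untreated Pik3cd+/- ovaries and 439, 408 and 412 units after PMSG. The groups did not overlap, and the change of -0.34 ± 0.08 was called (adjusted p = 0.0143). The Pik3cd-/- arrays read 584, 523 and 547 units untreated and 506, 492 and 451 units after PMSG, again without overlap. That change of -0.19 ± 0.08 was not called (adjusted p = 0.233). The Gli2 call in Pik3cd+/- ovaries was lost without untreated replicate 2 (adjusted p = 0.0678) and without PMSG replicate 2 (adjusted p = 0.0526).

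Gli3, the main repressor, read 159, 166 and 161 units in untreated Pik3cd+/- ovaries and 130.4, 121 and 125 units after PMSG. The change was -0.35 ± 0.09 (adjusted p = 0.0196), with no overlap. Among Pik3cd-/- ovaries Gli3 read 153, 167 and 154 units untreated and 172, 183 and 170.4 units after PMSG, so that here every PMSG array lay above every untreated one. That change of 0.14 ± 0.09 was not called (adjusted p = 0.429). After E2, Gli3 averaged 132 ± 7.27 units in Pik3cd+/- ovaries, below every untreated array, with a change of -0.28 ± 0.09 that did not pass (adjusted p = 0.141). After E2 in Pik3cd-/- ovaries it averaged 138 ± 22.8 units. The Gli3 call after PMSG in Pik3cd+/- ovaries was lost without untreated replicate 1, untreated replicate 2 or PMSG replicate 2 (adjusted p of 0.0585, 0.0670 and 0.0700).

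In sum over PMSG in Pik3cd+/- ovaries, Gli1 and Ptch1 were called whichever single array was left out, and the count of called members ranged from 2 to 6. It was 2 without Pik3cd+/- untreated replicate 2 or PMSG replicate 2, and 6 without PMSG replicate 3, where Dhh and Hhip were added. In Pik3cd-/- ovaries single arrays after PMSG lay entirely below the untreated ones for 3 members (14.4% of all genes) and entirely above for 2 members (12.4% of all genes). Of E2, 0 of the 8 genes were called in either genotype, with 1 member at an unadjusted limma p under 0.05 in each (Gli3 in Pik3cd+/- and Gli2 in Pik3cd-/-). Over all genes E2 gave 1.62% called in Pik3cd+/- and 0.0551% in Pik3cd-/- ovaries, and 17.0% and 14.6% with an unadjusted p under 0.05. The 2 treatment effects of a genotype share the same untreated arrays.

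**Figure D3:**
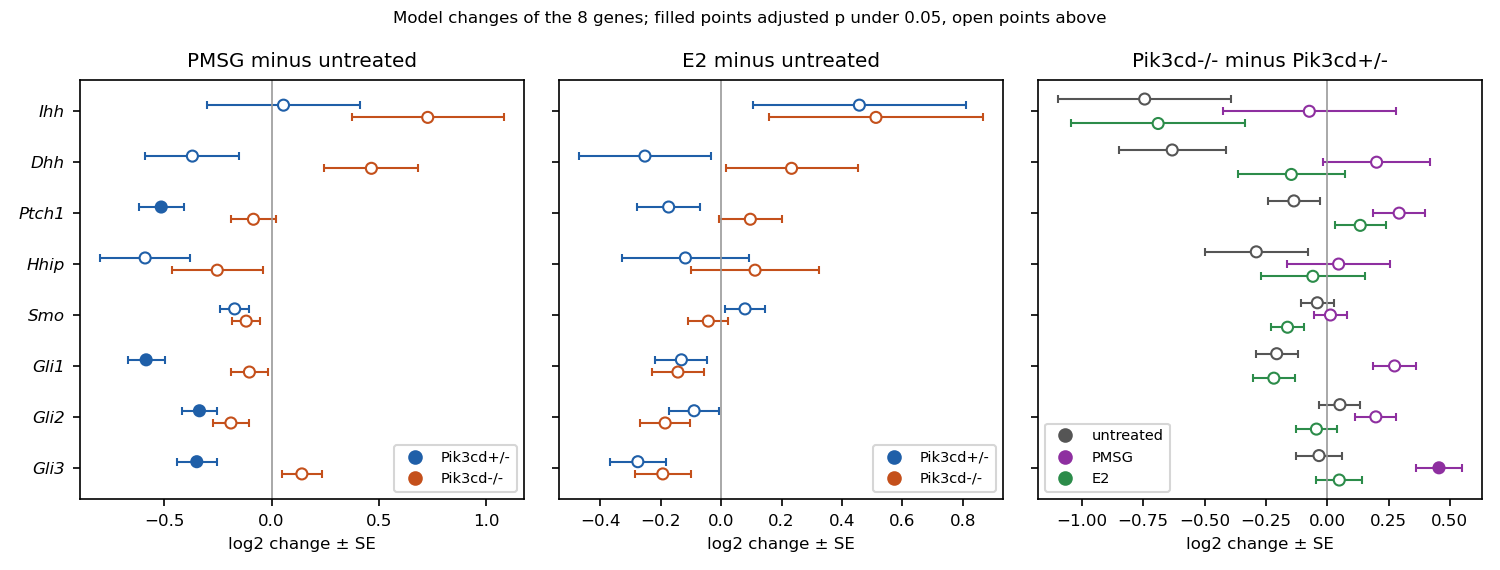
Log2 change ± SE (horizontal axes) of the 8 genes after PMSG (left), after E2 (middle) and between genotypes (right); filled points had an adjusted p under 0.05. The filled points are Ptch1, Gli1, Gli2 and Gli3 after PMSG in Pik3cd+/- ovaries and Gli3 in the genotype difference after PMSG.

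The genotypes were compared within each state. After PMSG, Gli3 was higher in Pik3cd-/- than in Pik3cd+/- ovaries, at 175 ± 6.75 against 125 ± 4.77 units, a difference of 0.46 ± 0.09 (adjusted p = 0.0148). It was the 1 member called, where 4.13% of all genes were called and 3.08% were called as higher. Gli1 (104 against 84.4 units; 0.27 ± 0.09, adjusted p = 0.0867), Ptch1 (2542 against 2070.3 units; 0.29 ± 0.10, adjusted p = 0.138) and Gli2 (483 against 419.5 units; 0.20 ± 0.08, adjusted p = 0.219) were also higher on every Pik3cd-/- PMSG array than on any Pik3cd+/- one, without passing. These 4 of 8 genes without overlap compare with 16.7% of all genes. The Gli3 call was lost without Pik3cd+/- PMSG replicate 2 (adjusted p = 0.0582) or Pik3cd-/- PMSG replicate 2 (adjusted p = 0.0897).

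Between untreated genotypes 0 of the 8 genes were called and 2, Dhh and Gli1, had an unadjusted limma p under 0.05, where 2.17% of all genes were called and 20.4% had an unadjusted p under 0.05. Gli1 read 85.7% of the Pik3cd+/- mean in untreated Pik3cd-/- ovaries (-0.21 ± 0.09, adjusted p = 0.191). After E2, 0 members were called and 2, Smo and Gli1, had an unadjusted limma p under 0.05, where 16.8% of all genes were called and 34.5% had an unadjusted p under 0.05. There Smo lay at 89.4% (-0.16 ± 0.07, adjusted p = 0.0979), Gli1 at 85.0% (-0.22 ± 0.09, adjusted p = 0.0900) and Ihh at 63.5% (-0.69 ± 0.35, adjusted p = 0.178) of the Pik3cd+/- mean. Without Pik3cd-/- E2 replicate 1, the array with low granulosa markers, the Ihh difference was -0.37 ± 0.36 (adjusted p = 0.518) and that of Dhh was -0.01 ± 0.24, against -0.15 ± 0.22 with it.

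Whether the PMSG effect itself differed between genotypes was tested as an interaction, for which limma called 0 of the 12713 genes (0%) although 1194 had an unadjusted p under 0.05. All 8 members had a positive estimate, meaning a less negative or more positive PMSG change in Pik3cd-/- ovaries. The largest shifts relative to their error were Gli1 (0.48 ± 0.12, adjusted p = 0.348) and Gli3 (0.49 ± 0.13, adjusted p = 0.359). Ptch1 followed at 0.43 ± 0.15 (adjusted p = 0.410) and Dhh at 0.83 ± 0.31 (adjusted p = 0.424), and these 4 had an unadjusted p under 0.05, as did 9.39% of all genes. The median over the members was 0.45, and 0.04 over all genes. Gli1, Ptch1, Gli2 and Gli3 were called after PMSG in one genotype and not in the other. This is therefore not shown to be a difference in the PMSG effect between genotypes. For E2 the interaction called 0 of all genes (0%; 924 had an unadjusted limma p under 0.05), and no member was below 0.05 unadjusted.

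The further probe sets bear on single genes, and were fitted among all 45037 non-control probe sets without a brightness filter. A second Gli2 probe set (mean 186 units) and a second Gli3 probe set (mean 137 units) also fell after PMSG in Pik3cd+/- ovaries, by 0.43 ± 0.11 (adjusted p = 0.0277) and 0.49 ± 0.11 (adjusted p = 0.0152) on the log2 scale. The 3 further Hhip probe sets gave -0.47, -0.31 and -0.52, none called. The dim probe sets of Ptch1 (means 44.7 and 22.3 units) gave -0.02 and -0.26, and that of Gli3 (18.1 units) -0.01. These lay below the filter on dim genes and were not called. For Pik3cd-/- ovaries the second Gli3 probe set gave -0.09 ± 0.11 after PMSG, opposite in sign to the brightest one. Its genotype difference after PMSG was 0.36 ± 0.11 (adjusted p = 0.155). The second Smo probe set (mean 499.7 units) was called lower in Pik3cd-/- than in Pik3cd+/- ovaries after E2 (-0.47 ± 0.10, adjusted p = 0.0135), where the brightest gave -0.16. Its group means ran from 431 ± 46.8 units (Pik3cd-/- E2) to 600 ± 47.0 units (Pik3cd+/- E2). In Pik3cd-/- ovaries its mean was 458 ± 19.6 units untreated and 491 ± 48.9 units after PMSG, opposite in direction to the brightest one. The second Dhh probe set read 52.2 to 63.9 units untreated and 81.3 to 85.2 units after PMSG in Pik3cd-/- ovaries, without overlap. Its mean there was 56.1 ± 6.75 units untreated and 50.8 ± 7.82 units after E2, where the brightest gave 0.23. In Pik3cd+/- ovaries its mean was 83.4 ± 9.93 units untreated and 71.4 ± 15.8 units after PMSG. Gli1 and Ihh have 1 probe set each.

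**Figure D4:**
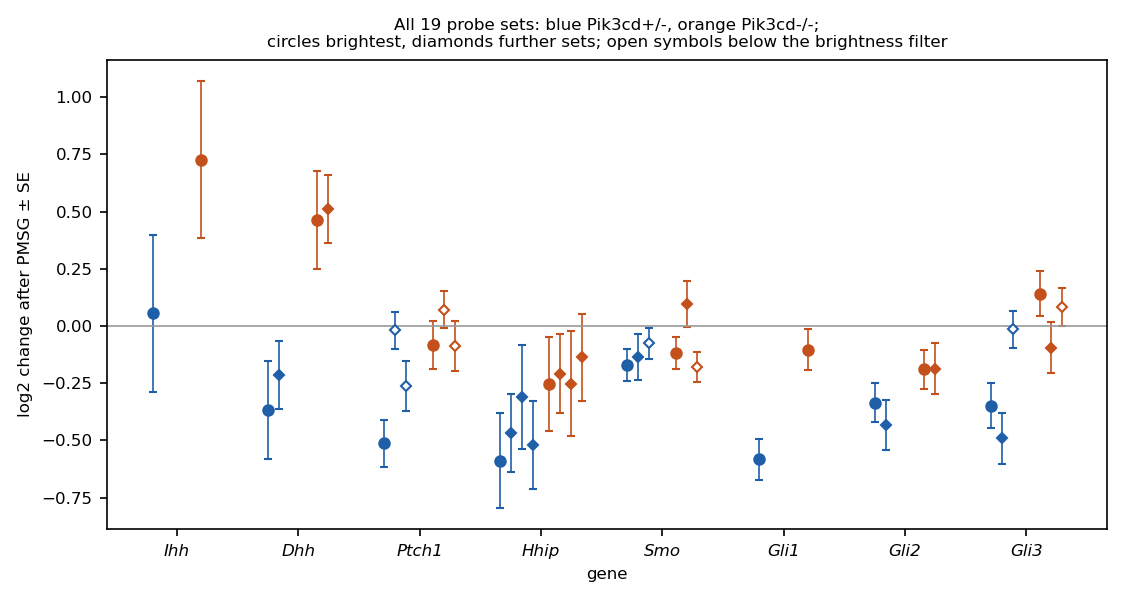
Log2 change after PMSG ± SE (vertical axis) of all 19 probe sets of the 8 genes (horizontal axis) in both genotypes; circles are the brightest probe set of a gene, diamonds the others, and open symbols lie below the filter on dim genes. In Pik3cd+/- ovaries both bright probe sets of Gli2 and of Gli3 lie below 0, while the dim ones of Ptch1 and Gli3 lie nearer to 0.

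Across the 6 groups the order of the means put Pik3cd+/- PMSG last for Ptch1, Hhip, Smo, Gli1, Gli2 and Gli3. For Ptch1, Gli1 and Gli2 its arrays did not overlap the group next above (Pik3cd-/- PMSG for Ptch1 and Gli2, Pik3cd-/- E2 for Gli1). For Hhip, Smo and Gli3 they did. Gli3 was the only member highest in Pik3cd-/- PMSG ovaries, above untreated Pik3cd+/- ovaries without overlap. Its second probe set did not show this, with 135 to 151 units in Pik3cd-/- PMSG and 153 to 163 units in untreated Pik3cd+/- ovaries. By their brightest probe sets both ligands were lowest in untreated Pik3cd-/- ovaries, and all neighbours in their order overlapped. The second Dhh probe set was lower in Pik3cd-/- ovaries after E2 (50.8 ± 7.82 units) than untreated (56.1 ± 6.75 units).

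Of 61 further genes of the pathway in 5 lists, 50 were tested. After PMSG in Pik3cd+/- ovaries 16 of the 50 were called (4 higher, 12 lower; 32%, beside 17.7% of all genes), with a median change of -0.10. The same lists gave 1 call in Pik3cd-/- ovaries (2%, beside 2.39% of all genes). Among genes of ligand release 1 of 4 was called, Disp1 (-0.39 ± 0.13, adjusted p = 0.0456), which exports the ligand from the cell. Among genes of reception at the membrane 3 of 9 were called. The co-receptor Cdon fell by 0.54 ± 0.14 (adjusted p = 0.0165) and Gpc3, a glypican that binds hedgehog ligands, showed a change of -1.02 ± 0.16 (adjusted p = 0.00139). Another glypican, Gpc4, rose by 0.38 ± 0.10 (adjusted p = 0.0157).

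Among cytoplasmic regulators of the Gli factors 4 of 13 were called. Sufu, which retains Gli proteins in the cytoplasm, fell by 0.33 ± 0.09 and Stk36, a kinase also needed for motile cilia, by 0.98 ± 0.19. Csnk1e fell by 0.48 ± 0.15 and Csnk1g1 rose by 0.33 ± 0.09; both are casein kinases. Of cilium transport genes 2 of 12 were called, Ift122 (-0.39 ± 0.08) and Dync2h1 (-0.33 ± 0.10), which carry cargo from the tip of the cilium back to its base. Of genes known as hedgehog targets in other tissues 6 of 12 were called. Mycn (-0.82 ± 0.20), Nr2f2 (-0.48 ± 0.09), Snai1 (-0.49 ± 0.12) and the cyclin Ccnd2 (-0.43 ± 0.12) fell, while Grem1 (3.12 ± 0.65), a secreted BMP antagonist, and Osr1 (0.85 ± 0.21) rose. Grem1 and Ccnd2 are also well known as gonadotropin-responsive granulosa cell genes. Grem1 was the only gene of the lists called after PMSG in Pik3cd-/- ovaries, at 2.63 ± 0.65 (adjusted p = 0.0457).

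**Figure D5:**
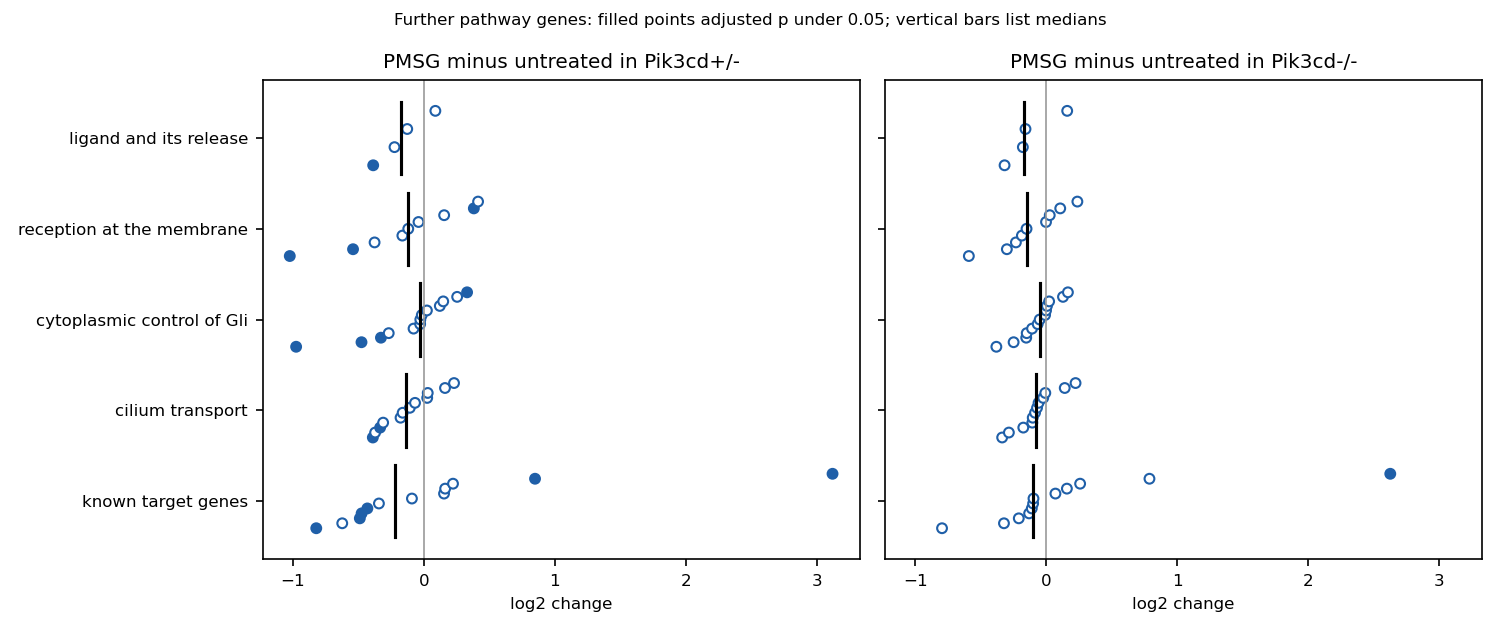
Log2 change after PMSG (horizontal axes) of the tested genes of 5 pathway lists in Pik3cd+/- (left) and Pik3cd-/- (right) ovaries; filled points had an adjusted p under 0.05 and vertical bars are list medians. Of the 50 genes, 16 are filled on the left and 1, Grem1, on the right.

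In the other comparisons few list genes were called. After PMSG, Stk36 (0.97 ± 0.19, adjusted p = 0.0138) and Bcl2 (0.53 ± 0.14, adjusted p = 0.0418), an inhibitor of apoptosis, were higher in Pik3cd-/- ovaries. These were 2 of 50 (4%, beside 4.13% of all genes). Evc2, a ciliary partner of Smo, was lower in Pik3cd-/- ovaries both untreated (-0.82 ± 0.16, adjusted p = 0.0275) and after E2 (-0.81 ± 0.16, adjusted p = 0.00688). It was the 1 list gene of 50 called untreated (2%, beside 2.17% of all genes). After E2 the ligand-release gene Scube2 (-0.63) and the transport genes Ift172 (-0.47) and Dync2h1 (-0.37) were also lower and Bcl2 (0.52) higher, 5 of 50 in all (10%, beside 16.8% of all genes). E2 itself gave 1 call in each genotype, Nr2f2 in Pik3cd+/- (-0.41 ± 0.09) and Osr2 in Pik3cd-/- ovaries (-0.65 ± 0.11). That was 2% of the list genes in each, beside 1.62% and 0.0551% of all genes.

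The genes whose log2 values followed Gli1 most closely over the 18 arrays were Zkscan8 (Pearson r = 0.908), Pds5b (0.894) and Mdn1 (0.876). Of the members, Gli2 (0.797) ranked 79 and Ptch1 (0.750) 177 of 12712 genes. For Ptch1 the closest were Wee1 (0.844), Rassf5 (0.824) and Cntn4 (0.821), and for Hhip they were Atad5 (0.874), Usp1 (0.852) and Shcbp1 (0.827). These values describe the likeness of levels, which includes the differences between groups.

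Markers of other ovarian cells also differed between groups. Of 8 oocyte markers 6 were called lower after PMSG in Pik3cd+/- ovaries (median -0.92; summed signal 7765 to 9039 against 14868 to 15803 units untreated), and 7 were called higher in Pik3cd-/- than in Pik3cd+/- ovaries after PMSG (summed signal 16703 to 18548 units). In the genotype difference 4 of the 8 oocyte markers were also called higher in untreated and 8 in E2-treated Pik3cd-/- ovaries. Of the 8 hedgehog members, 7 had a negative genotype estimate untreated and 6 after E2, with 0 called in either. Over all genes 52.2% were negative untreated and 60.5% after E2. After PMSG 7 members had a positive estimate and 1 was called, where 46.6% of all genes had a negative one. Gdf9 fell from 5313 ± 123 to 2816 ± 268 units after PMSG in Pik3cd+/- ovaries (-0.92 ± 0.17, adjusted p = 0.00299). Gdf9 in Pik3cd-/- ovaries was 7245 ± 819 units untreated and 5839 ± 359 after PMSG, a change that was not called (-0.31 ± 0.17, adjusted p = 0.327). Bmp15 was called in neither genotype (-0.54 ± 0.26, adjusted p = 0.161, and -0.31 ± 0.26, adjusted p = 0.550). The part of these factors and of the oocyte markers in the hedgehog differences was not tested.

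Of 6 theca and steroidogenic markers tested, 5 were called higher after PMSG in Pik3cd+/- and 3 in Pik3cd-/- ovaries (medians 1.89 and 1.72). Their summed signal went from 18742 to 21587 units untreated to 33286 to 43215 units after PMSG in Pik3cd+/- ovaries. These are steroidogenic genes that gonadotropins are known to induce, and their part in the hedgehog differences was not tested. Of 8 stromal markers 1, Nr2f2, was called lower there (median 0.04; summed signal 23051 to 32418 against 26477 to 27696 units untreated). Granulosa markers gave 1 higher and 1 lower call of 8 (27350 to 42960 units after PMSG against 30672 to 32740 untreated). Of macrophage markers 3 of 6 and of smooth muscle markers 2 of 7 were called higher in that comparison, and of endothelial, oviduct and adipocyte markers 0 of 6, 0 of 3 and 0 of 2 tested.

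Oviduct marker signal was uneven between replicates, with a sum of 4306 units in Pik3cd+/- PMSG replicate 1 against 312 and 114 in its mates, and of 1666 units in Pik3cd+/- untreated replicate 2 against 186 and 316. Other markers were uneven in Pik3cd-/- E2 ovaries, where replicates 1, 2 and 3 had adipocyte sums of 3463, 57.0 and 10146 units. Macrophage sums on these arrays were 2257, 806 and 3317 units, and oocyte sums 23306, 24091 and 13339 units. With each array left out in turn, the limma adjusted p for PMSG in Pik3cd+/- ovaries ran from 2.34e-04 to 0.00621 for Gli1. For Ptch1 it ran from 0.00300 to 0.0233. The 2 arrays with high oviduct signal were not left out together. The part of oviduct or other cell content in the hedgehog differences was not tested.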

How the data were processed

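The authors deposited 1 intensity per probe set and array on a linear scale from Affymetrix Mouse Genome 430 2.0 arrays, made with MAS5 per the submitters' processing notes; version and scaling are not given in the sources used here. Array distributions were alike, so no further normalization was applied. Values were tested as log2 of the intensity plus 8.58 (the 10th percentile), which understates changes of dim genes. Of 45101 probe sets, 64 controls, 932 with several symbols and 9160 with none were left out; 34945 with 1 symbol gave 18193 genes by their brightest probe set, and 12713 had a group mean above the median of 5.87. Symbols come from GEO's platform annotation.

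All 18 arrays were fitted with limma 3.58.1 in R 4.3.3 (6 group means, eBayes with trend, 12 residual and 3.66 prior degrees of freedom) for 9 comparisons: PMSG and E2 effects by genotype, the genotype difference in each state, and 2 interactions. Tests were two-sided, with Benjamini-Hochberg adjustment over the genes tested. Scripts were tested on simulated data. Members and lists were chosen with earlier results of these data known. Named were all members, list genes called (at most 4 per list, direction and comparison), Pik3cd, Gdf9, Bmp15 and the 3 genes most like Gli1, Ptch1 and Hhip. Relations between arrays were tested by permuting arrays within groups (46656 orders). The labels call the arrays biological replicates. Replicate numbers were taken as names only: same-numbered arrays of different groups had deviations correlated between -0.34 and 0.34.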

Additional observations from a re-analysis of the deposited data

Results flagged for a closer look

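The PMSG effect on Gli3 ran in opposite directions in the 2 genotypes. In Pik3cd+/- ovaries all 3 PMSG arrays lay below all 3 untreated arrays (log2 change -0.35), and in Pik3cd-/- ovaries all 3 lay above (0.14). The difference between these changes was 0.489 ± 0.132 (SE; limma interaction, adjusted p = 0.359), so it did not pass the threshold. It was noticed among 8 genes and 2 treatments. The second Gli3 probe set fell in Pik3cd+/- ovaries but gave -0.09 in Pik3cd-/- ovaries.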

How the results depend on the processing

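Over 72 results (8 members, 9 comparisons) and their alternatives, 2007 refits gave 1989 with the same direction and side of the threshold or with no call in either, 8 that lost a call, 10 that gained one and 0 reversed calls; 39 changed sign where neither passed. Gli1 was not above the 70th percentile filter and has no value there. With the probe set of highest variance, 0 members were called in the genotype difference after PMSG (Gli3 adjusted p = 0.0817) and 1, Smo, after E2. The arrays of lowest and highest granulosa markers, Pik3cd-/- untreated replicate 2 and Pik3cd+/- PMSG replicate 3, were also left out together (chosen after seeing the data). Then 1 member, Ihh, was called between genotypes after E2. Neither array belongs to that comparison, so they enter only its error. Leaving out 1 array gave 2 to 6 called members for PMSG in Pik3cd+/-, 0 to 1 for the genotype difference untreated and 0 to 1 after PMSG; it gave 0 in the other comparisons. The replicate block kept the counts at 4 and 1 where members were called and at 0 elsewhere; 4 of 18 arrays correlated best with their own number.

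Counts over all genes moved more. Leaving out 1 array gave 872 to 2742 genes for PMSG in Pik3cd+/- (2255 with all), 86 to 741 in Pik3cd-/- (304), 33 to 670 for E2 in Pik3cd+/- (206), 1 to 24 in Pik3cd-/- (7), and 1 to 681, 82 to 982 and 646 to 2970 for the genotype difference untreated (276), after PMSG (525) and after E2 (2141). The interactions gave 0 to 4 (PMSG) and 0 to 71 (E2). Fitting only the groups compared gave 764 for E2 in Pik3cd+/-, 0 in Pik3cd-/-, 95, 989 and 97 for the 3 genotype differences and 1 for the E2 interaction. Quantile normalization gave 485 for PMSG in Pik3cd-/-, 3 for E2 in Pik3cd-/-, 425 untreated and 3 for the PMSG interaction. E2 in Pik3cd-/- gave 2 with no filter, 2 with the block and 16 with the probe set of highest variance. The PMSG interaction gave 2 with a pseudocount of 64, and the E2 interaction 1 with the block. Without both granulosa-extreme arrays the counts were 327 for E2 in Pik3cd+/-, 3 in Pik3cd-/-, 3 untreated and 7 for the PMSG interaction. The causes were not tested. Signals near the filter, as for the dim probe sets of Ptch1 and Gli3, limit what those probe sets can show.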
